A study of Arabidopsis thaliana with 8 samples.

Results

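AUR1, AUR2 and PRL are 3 genes of the dividing plant cell, and their transcripts were followed in inflorescences of *Arabidopsis thaliana*, accession Ws, with insertions in TCP14 or TCP15. The members were chosen by annotation: every probe set assigned to AUR1 (AT4G32830), AUR2 (AT2G25880) or PRL (AT4G02060) was taken, which gave 3 of the 22810 probe sets on the Affymetrix ATH1 array, 1 for each gene, or 3 of 13356 genes with a probe set of their own. None of the 3 was assigned to a further gene, and all 3 passed the filter on low values, on 8 of 8 arrays. AUR1 and AUR2 are close relatives, and whether their probes also read the other transcript was not tested.

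The study hybridised RNA from 8 samples, 1 per array, in 4 groups of 2, and the title of HET replicate 2 marks that array as a repeat without saying of what. CON is the control, for which the labels give the accession and no genetic modification. In T13 the T-DNA insertion is in TCP14 (AT3G47620), in T14 it is in TCP15 (AT1G69690), each of unstated zygosity, and HET plants are heterozygous for both insertions. A T-DNA insertion is a piece of transferred bacterial DNA that can disrupt the gene it enters. All groups share the accession, growth stage 6.0, compost, a greenhouse kept at 18 °C and days of 16 h, and the series' design text states pools of 10 plants. With 1 line per gene, the insertion and any other feature of its line cannot be told apart. Separate pools for the 2 arrays of a group are not stated, so p-values reflect the scatter of these arrays, which may be technical.

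Before a plant cell divides it must license its replication origins, copy its DNA and then separate the copies on a spindle. PRL, also called PROLIFERA or MCM7, is a subunit of the MCM complex, the ring-shaped helicase that is loaded on origins and opens the DNA in S phase. AUR1 and AUR2 are Aurora kinases, which phosphorylate proteins of the spindle and chromosomes during mitosis, and in *Arabidopsis* these α-type members are known for a role in oriented divisions. TCP14 and TCP15 are class I TCP transcription factors, a family known in *Arabidopsis* for effects on cell proliferation in growing organs. In an inflorescence, transcripts of such genes come mainly from meristems and young flower primordia.

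TCP15 checked the T14 label. Its intensities were 198.2 and 244.0 in CON, 205.9 and 204.1 in T13, 86.0 and 68.8 in T14, and 188.2 and 221.8 in HET. The T14 arrays lay below the 6 others, with a log2 difference from CON of -1.34 (limma adjusted p = 0.0606). No probe set was named for TCP14, so the T13 label was not checked. In HET the log2 difference of TCP15 was -0.10 (limma adjusted p = 0.994), so the arrays gave no check of the HET label either. Of 12 listed floral regulators 1 was named, SPT, which lay between 66.7 and 129.0 on all 8 arrays. With no array of another tissue, this level does not check the flower label. One array differed in a measure of how complete the labelled RNA was, the signal of the 5′ GAPDH control divided by that of the 3′ control: it was 0.345 on HET replicate 1 and from 0.0639 to 0.129 elsewhere. The same ratio for the actin control did not set that array apart, at 0.0732 against 0.0695 to 0.119 elsewhere. A higher ratio means more complete labelled RNA, so HET replicate 1 was the more complete array by GAPDH alone. On all 8 arrays both ratios were at or below 0.345, so the 3′ signal was the stronger throughout. The scanner background average was from 98.5 to 113 on CON replicate 1 and both T13 arrays and from 83.5 to 87.4 on the rest.

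AUR1 was brightest in the control. Its deposited intensity, on a linear scale, was 229.5 and 185.9 on the CON arrays, 130.5 and 196.4 in T13, 148.1 and 171.6 in T14, and 155.0 and 133.5 in HET. All 6 insertion arrays lay below the CON mean, 5 of them lay below both CON arrays, and T13 replicate 2 lay between the CON arrays. Over all 15045 kept probe sets, 7.27% had all 6 insertion arrays below the CON mean, so the placing of AUR1 was shared by many genes. In order of their means the groups were CON at 208 ± 30.8 (SD, n = 2 in each group), T13 at 163 ± 46.6, T14 at 160 ± 16.6 and HET at 144 ± 15.2. Each group overlapped its neighbour in that order. The T14 and the HET arrays all lay below both CON arrays, which was so for 5.28% of kept probe sets.

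The AUR2 groups lay largely within the spread of the control pair. Its intensities were 87.5 and 64.0 in CON, 70.0 and 70.3 in T13, 54.6 and 80.0 in T14, and 70.9 and 77.7 in HET. The 2 CON arrays enclosed 5 of the 6 insertion arrays, and T14 replicate 1 lay below them. The order of the means was CON at 75.8 ± 16.6 (SD, n = 2 in each group), HET at 74.3 ± 4.81, T13 at 70.2 ± 0.212 and T14 at 67.3 ± 18.0. Neighbouring groups overlapped except for HET and T13, whose nearest arrays were 70.9 and 70.3, a difference that was not tested.

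PRL had the steadiest signal of the 3. It stood at 257.6 and 266.6 in CON, 280.5 and 234.4 in T13, 234.3 and 275.1 in T14, and 240.6 and 216.9 in HET. The T13 and T14 arrays lay on both sides of the CON arrays, and both HET arrays lay below them. Group means were 262 ± 6.36 in CON (SD, n = 2 in each group), 257 ± 32.6 in T13, 255 ± 28.9 in T14 and 229 ± 16.8 in HET, and each group overlapped the next in that order. From the lowest to the highest array PRL spanned 1.29-fold, against 1.60-fold for AUR2 and 1.76-fold for AUR1.

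**Figure D1:**
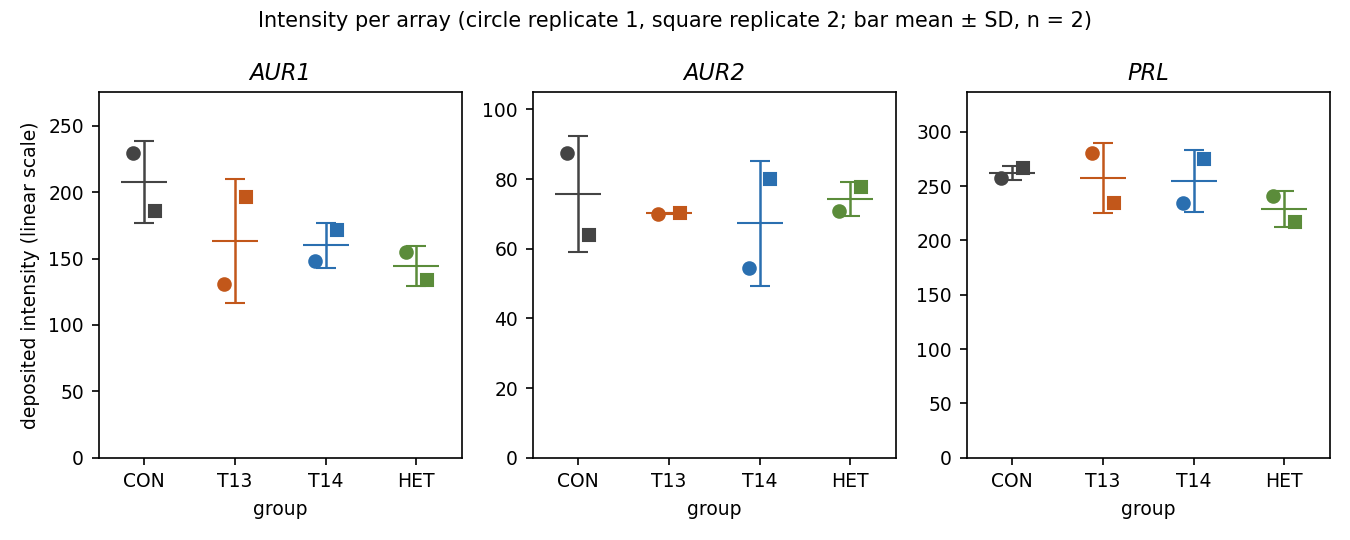
Deposited intensity (vertical axis, linear scale from 0) of AUR1, AUR2 and PRL in CON, T13, T14 and HET (horizontal axis); circles are replicate 1, squares replicate 2, and bars the mean ± SD of 2 arrays. AUR1 has 5 of 6 insertion arrays below both CON arrays, the AUR2 groups lie at 54.6 to 87.5 without a clear order, and both HET arrays of PRL, 240.6 and 216.9, lie below the CON arrays.

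The spread between replicates, of each member and of all kept probe sets, limited what these arrays could show. On the log2(intensity + 16) scale used for all tests, the SD within groups was 0.23 for AUR1, 0.21 for AUR2 and 0.13 for PRL, against a median of 0.22 over all kept probe sets. The tests and intervals used the SD after limma moderated it over all kept probe sets: 0.226 for AUR1, 0.217 for AUR2 and 0.197 for PRL. The widest gap between the 2 arrays of a group was that of AUR1 in T13, at 0.54, where the median gap of all kept probe sets was 0.23. For AUR2 the gap was 0.44 in T14, 0.37 in CON and 0.01 in T13.

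The first comparison set T13, with the insertion in TCP14, against CON. None of the 3 members passed (limma, adjusted p under 0.05), and 0 had an unadjusted p under 0.05. The backgrounds over all kept probe sets were 0.592% and 5.99%. AUR1 had a log2 difference of -0.34 (SE 0.226, 95% interval -0.83 to 0.16, limma adjusted p = 0.86). This value rested on T13 replicate 1, since it was -0.07 without that array and -0.60 without T13 replicate 2. It was -0.19 without CON replicate 1 and -0.48 without CON replicate 2. With the scanner background as a covariate the AUR1 difference was larger, at -0.43. AUR2 had -0.08 (95% interval -0.55 to 0.40) and PRL -0.03 (-0.46 to 0.40), with limma adjusted p of 0.957 and 0.983. The sign for PRL turned under quantile normalization, to 0.0026, and with the GAPDH ratio as a covariate, to 0.01.

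The second comparison set T14, with the insertion in TCP15, against CON. Again 0 of 3 members passed in limma and 0 had an unadjusted p under 0.05, where 0.0199% and 5.82% of all kept probe sets did. AUR1 had a log2 difference of -0.34 (SE 0.226, 95% interval -0.84 to 0.15, limma adjusted p = 0.855). Both T14 arrays lay below both CON arrays, as did those of 15.8% of kept probe sets. With the scanner background as a covariate the AUR1 difference was -0.07, and without CON replicate 1, the array with the highest background, it was -0.20. Without CON replicate 2 it was -0.48. CON replicate 1 also held the highest AUR1 intensity, and any part of the background in the AUR1 values was not tested. AUR2 had a log2 difference of -0.14 (95% interval -0.62 to 0.33) and PRL of -0.04 (-0.47 to 0.39), with limma adjusted p of 0.934 and 0.98. With the background covariate AUR2 turned to 0.02.

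HET was then set against CON, the comparison with the largest AUR1 value of the 3. AUR1 had a log2 difference of -0.48 (SE 0.226, 95% interval -0.97 to 0.02), which is 0.718 times the control level. It did not pass (limma adjusted p = 0.816), its unadjusted p being 0.057. None of the 3 members passed in limma, where 1.07% of kept probe sets did, and 0 had an unadjusted p under 0.05, where 6.37% did. Ordered by p, AUR1 came at place 1051 of the 15045 probe sets. The AUR1 value was -0.57 without HET replicate 1, where the GAPDH ratio was high, and -0.21 with scanner background as a covariate. For PRL, HET against CON gave -0.19 (95% interval -0.62 to 0.25, limma adjusted p = 0.983). The arrays of AUR1 and of PRL did not overlap, both lower in HET, which held for 17.4% of all kept probe sets. AUR2 had -0.01 (95% interval -0.49 to 0.46, limma adjusted p = 1.0), a sign that turned in 6 of 16 alternatives, among them both other scalings at 0.02.

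**Figure D2:**
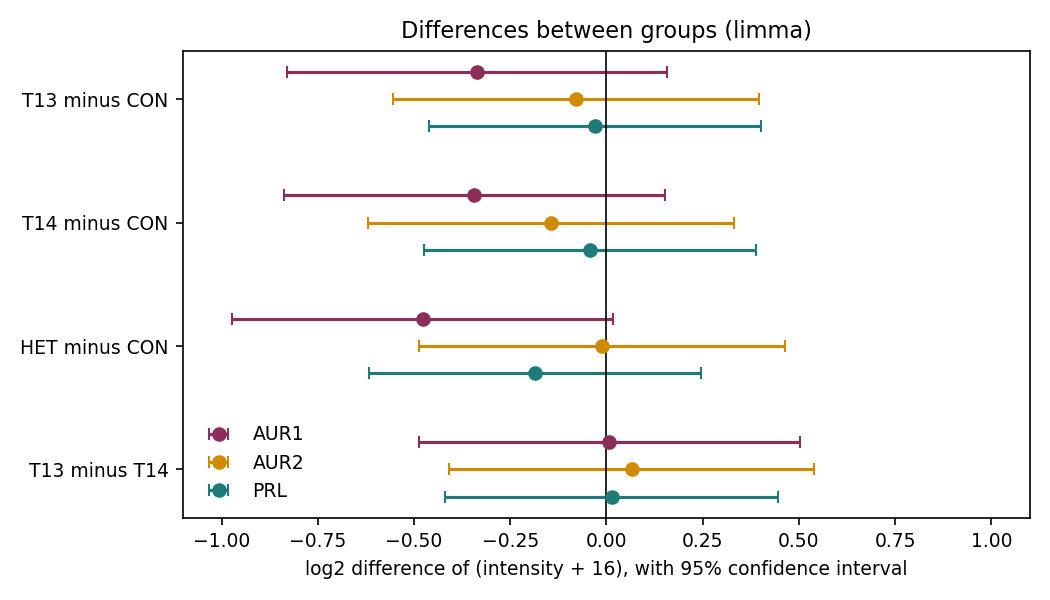
Log2 difference of intensity + 16 (horizontal axis) with its 95% confidence interval from limma for AUR1, AUR2 and PRL in the 4 comparisons (vertical axis). All 12 intervals include 0, and the AUR1 interval for HET minus CON reaches 0.02.

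Given the scatter of these arrays, the intervals bound the changes that could have been missed. That scatter may be technical, so the intervals need not cover variation between pools of plants. Over the 9 differences from CON, the lowest fold in any interval was 0.51 and the highest 1.38, so 0 of 9 intervals reached a fold of 0.5 and 0 reached 2. For AUR1 the lower bound depended on the setting: it was under 0.5 in 5 of 16 alternatives for HET, down to 0.423 without CON replicate 2, and in 2 of 16 each for T13 and T14, down to 0.445 and 0.464. For AUR2 and PRL no alternative took a bound below 0.53 or above 1.77. These bounds hold for each difference singly, were not adjusted over the 9, and refer to log2(intensity + 16), which understates changes in the RNA where the signal is dim. The 9 differences share the 2 CON arrays and all 9 were negative, so their common sign is not 9 separate observations. A negative difference from CON in all 3 groups was found for 19.7% of kept probe sets. In RNA from whole inflorescences, fewer dividing cells and less of the transcript per dividing cell cannot be told apart.

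**Figure D3:**
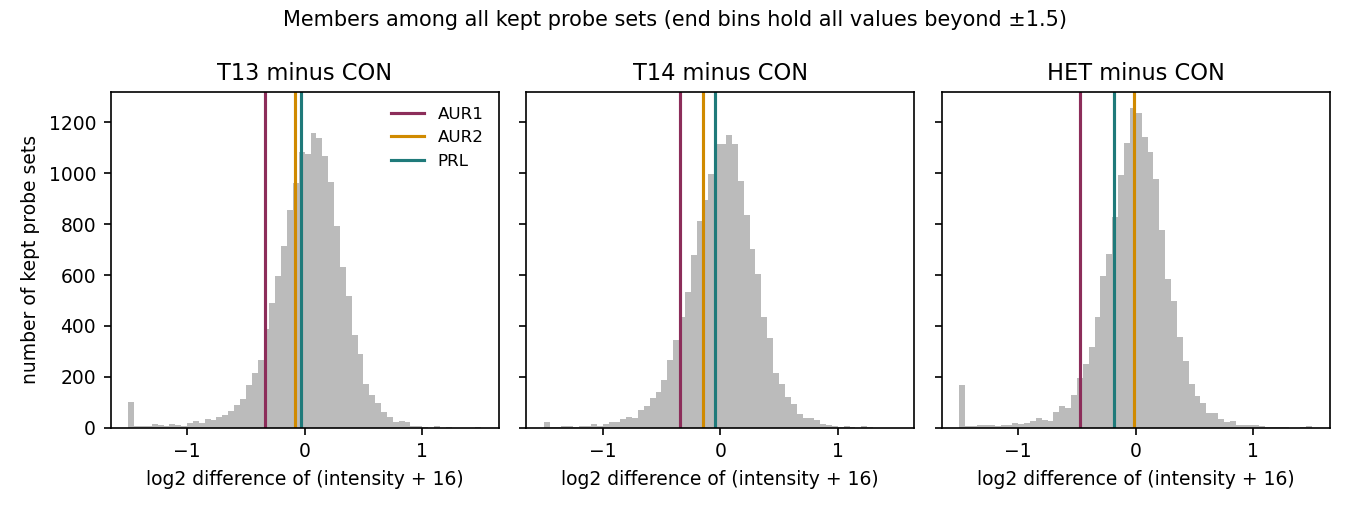
Number of kept probe sets (vertical axis) by log2 difference from CON (horizontal axis, end bins holding all values beyond the axis) in T13, T14 and HET, with vertical lines at AUR1, AUR2 and PRL. AUR1 lies on the lower side of the distribution in each panel, with 9.62%, 10.1% and 5.76% of probe sets at or below it, while AUR2 and PRL lie in its body.

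T13 was also set against T14 directly. T13 minus T14 was 0.01 for AUR1 (95% interval -0.49 to 0.50), 0.07 for AUR2 (-0.41 to 0.54) and 0.01 for PRL (-0.42 to 0.45). No member passed in limma (adjusted p = 0.999 for each) and 0 had an unadjusted p under 0.05, where 0.499% and 4.34% of kept probe sets did. As folds, the intervals together ran from 0.714 to 1.45. With scanner background as a covariate AUR1 was at -0.35. A moderated F test for any difference among the 4 groups gave limma adjusted p of 0.807 for AUR1, 0.978 for AUR2 and 0.953 for PRL, where 0.997% of kept probe sets passed.

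The other genes of cell division were read from 8 lists of 129 genes by role. Of these, 15 had a named probe set and 14 passed the filter, so the lists sampled a small part of the pathway. The A-, B- and D-type cyclins, the B-type cyclin-dependent kinases and the other MCM subunits, the closest partners of PRL, had no named probe set and are not analysed here. The replication licensing list held 1 named gene, AT1G07270, which did not pass the filter and lay between 24.0 and 51.7.

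None of the 14 kept genes passed in T13, T14 or HET against CON (limma), and in each comparison 0 had an unadjusted p under 0.05. Over all kept probe sets 0.592%, 0.0199% and 1.07% passed, and 5.99%, 5.82% and 6.37% had an unadjusted p under 0.05. In T13 there were 7 with a negative difference and 7 with a positive one, a median of 0.0003 against 0.05 over all kept probe sets, of which 42.7% were negative. The count of negative differences in T13 was 11 under quantile normalization and 12 under median centring. In T14, 9 of 14 were negative, with a median of -0.13 against 0.03, and 46.1% of all kept probe sets were negative. In HET, 12 of 14 were negative, with a median of -0.12 against 0.0023, and over all kept probe sets 49.5% were negative. Of the 12, SIM, an inhibitor of cyclin-dependent kinases, was at -0.03, HTR12 at -0.02 and TOPII at -0.007. The HET count was 10 of 14 under quantile normalization and under median centring, so the order of T13 and HET depended on the scaling. Without HET replicate 1 the HET count was 11 of 14, and without HET replicate 2 it was 10. Both insertion arrays lay below both CON arrays for 5 of 14 genes in T14 and 7 of 14 in HET, where 15.8% and 17.4% of all kept probe sets did. These genes share the arrays and the control pair, so they are not separate observations.

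Among the spindle genes, AUR3, the third Aurora kinase, had 60.9 and 77.9 in CON, 50.9 and 99.7 in T13, 43.4 and 56.7 in T14, and 53.4 and 53.2 in HET. Its T14 and HET arrays lay below both CON arrays, as did those of AUR1 and of 5.28% of kept probe sets. The T13 arrays of AUR3 lay on either side of the CON arrays. The log2 differences of AUR3 were 0.05, -0.37 and -0.29 in T13, T14 and HET. BUBR1, a protein of the checkpoint that delays mitosis until chromosomes are attached, had the lowest value of the list, -0.58 in HET (limma adjusted p = 0.879), at 27.6 and 29.1 against 59.8 and 42.3 in CON. Its T14 arrays spanned 25.8 to 61.3, wider than the control pair. WYR, a plant relative of the Aurora partner INCENP, had 29.0 and 34.6 in HET against 40.5 and 48.0 in CON, a log2 difference of -0.33. The HET values of BUBR1 and WYR lay below the filter levels of those arrays, 34.0 and 38.9. Both genes passed the filter on arrays of other groups, which favours a lower value in HET.

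BUB3.1, also of the spindle checkpoint, went the other way in HET, with a log2 difference of 0.28 and intensities of 131.2 and 98.9 against 92.8 and 89.4. HTR12, the centromeric histone H3, was between 40.4 and 52.5 on all arrays, and its differences from CON were from -0.02 to 0.03. HBT, a subunit of the anaphase-promoting complex, was between 65.7 and 76.9, with differences from -0.09 to 0.04. The spindle list's AT2G28620 spanned 41.2 to 88.6 with differences from -0.06 to 0.10.

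Of the genes for DNA synthesis, POLD3, a subunit of DNA polymerase delta, had 71.0 and 79.0 in CON, 75.0 and 77.2 in T13, 45.6 and 64.1 in T14, and 57.2 and 45.3 in HET. Its T14 and HET arrays lay below all CON and T13 arrays, as did those of 1.48% of kept probe sets, with log2 differences from CON of -0.37 and -0.44 that did not pass (limma adjusted p = 0.846 and 0.826). ICU2, the catalytic subunit of DNA polymerase alpha, had differences of 0.15, -0.19 and -0.04 in T13, T14 and HET. AT5G26680 of the same list had -0.01, -0.04 and -0.16.

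KINESIN-12B, a motor of the phragmoplast that builds the new cell wall, had 45.6 and 45.9 in CON and was lower on every insertion array, from 27.3 to 41.7, as were 2.68% of kept probe sets. Its log2 differences were -0.23, -0.33 and -0.21 in T13, T14 and HET, with limma adjusted p from 0.882 to 0.984. TOPII, the topoisomerase that untangles sister chromatids, spanned 111.1 to 189.8, with one high and one low array in CON, T13 and HET alike. ATSMC2, a condensin subunit, was at 64.3 and 63.2 in HET against 84.7 and 69.8 in CON, a log2 difference of -0.22. SIM, an inhibitor of cyclin-dependent kinases that favours endoreduplication, had log2 differences from CON between -0.03 and 0.07.

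**Figure D4:**
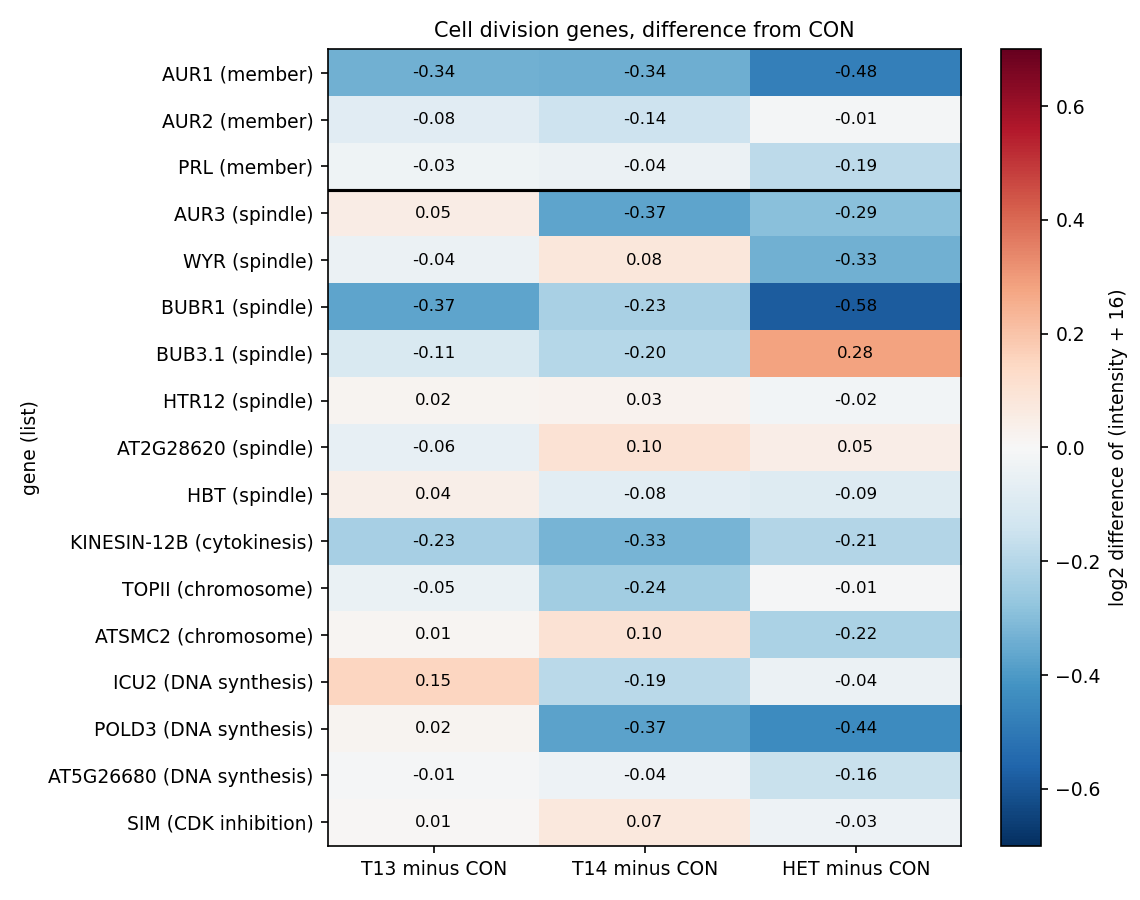
Log2 difference of intensity + 16 from CON in T13, T14 and HET (columns) for the 3 members, above the black line, and the 14 other kept cell division genes (rows), coloured from blue (lower than CON) to red (higher). BUBR1 at -0.58, AUR1 at -0.48 and POLD3 at -0.44 in HET are the lowest values, and BUB3.1 at 0.28 in HET the highest. Both HET intensities of BUBR1 are below the filter level of their arrays.

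Markers of flower cell types were measured on the same arrays. Of 8 listed pollen genes 3 were named and 2 passed the filter. Both kept genes, ANX2 and AT4G39110, were lower in HET (limma log2 -1.80 and -1.87, adjusted p = 0.0202 and 0.00639). In T13 (lowest limma adjusted p = 0.111) and T14 (0.931), 0 of 2 passed. Over all kept probe sets 1.07% passed in HET, 0.592% in T13 and 0.0199% in T14. Both genes passed the filter through CON and T14 arrays and lay below its level on all T13 and HET arrays. In HET, ANX2 was at 4.3 and 9.6 and AT4G39110 at 6.6 and 24.5. Keeping them in this way favours a lower value in T13 and HET. The summed intensity of the 3 named pollen genes was 173.4 and 169.0 in CON, 48.6 and 50.4 in T13, 136.0 and 192.5 in T14, and 21.0 and 35.8 in HET.

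Of 5 listed genes of the tapetum, the anther layer that feeds pollen, 3 were named and kept. All 3 differences from CON were positive in T13 and in HET, while in T14 2 of 3 were negative. Among these, AMS passed the filter only through its T13 and HET arrays, at 39.0 to 47.4, against 23.6 and 23.8 in CON. The filter thus favoured a positive sign of AMS in T13 and HET. Over all kept probe sets 42.7% were negative in T13, 46.1% in T14 and 49.5% in HET. ATA27, a beta-glucosidase of that layer, was higher in HET (limma log2 1.15, adjusted p = 0.0187), and its differences of 0.11 in T13 and -1.43 in T14 did not pass (limma adjusted p = 0.937 and 0.0606). AMS, a transcription factor of the tapetum, had 0.65, 0.09 and 0.54 in T13, T14 and HET, and AT5G07230 had 0.50, -1.26 and 1.02, none of which passed. The sum of the 3, carried by ATA27 and AT5G07230, was 387.2 and 426.4 in CON, 519.9 and 530.1 in T13, 116.1 and 220.9 in T14, and 1109.9 and 720.8 in HET. None of the 6 named marker genes was at 0 on any array, which does not show that they were detected. On HET replicate 1, ANX2 was at 4.3 and AT4G39110 at 6.6, below the filter level of 34.0. The part of cell composition in the AUR1 values was not tested.

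Similarity of pattern was read from Pearson's r over the 8 arrays on the log2(intensity + 16) scale, as a description, among 8285 other kept probe sets of 1 gene. The highest values for AUR1 were those of AT5G49560 (r = 0.948), AT4G24880 (0.945) and AT1G69050 (0.939), for AUR2 those of AT5G40630 (0.976), AT1G67470 (0.926) and AT3G57600 (0.91), and for PRL those of AT1G22970 (0.957), AT5G30490 (0.933) and AT5G16800 (0.924). The first 3 followed AUR1 with means highest in CON and lowest in HET, as in AT5G49560 at 89.9 and 59.0. These r values are the highest of 8285 over 8 arrays that share their scaling, and they carry no test. Between the members r was 0.371 for AUR1 and AUR2, 0.18 for AUR1 and PRL, and 0.155 for AUR2 and PRL. Of the same probe sets, 80.8% had a lower r with AUR1 than AUR2 had, and 83.5% a lower r with AUR2 than AUR1 had. For the pairs with PRL these shares were from 63.6% to 66.1%.

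**Figure D5:**
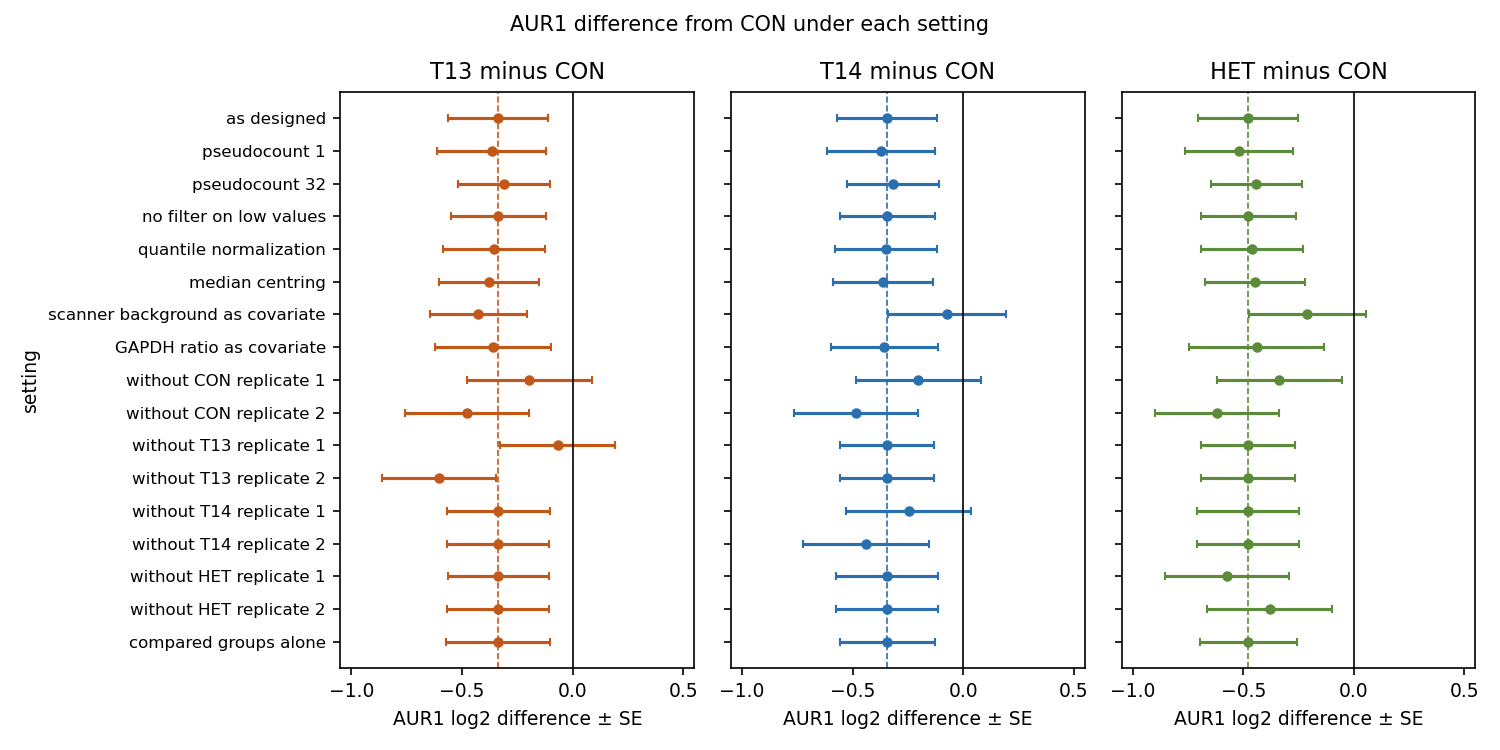
AUR1 log2 difference from CON ± SE (horizontal axis) in T13, T14 and HET as designed and under 16 other settings (vertical axis), with a dashed line at the value as designed. All values are negative, from -0.60 to -0.07 in T13, from -0.48 to -0.07 in T14 and from -0.62 to -0.21 in HET.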

How the data were processed

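The authors' deposited table gives an intensity on a linear scale for each probe set on each array, and how the probes were summarised is not stated in the sources. After trimming 2% at either end, every array had a mean of 100, and no further scaling was applied. Gene names are those of the platform annotation, brought to RefSeq symbols (assembly TAIR10.1) by Entrez identifier. Of 22810 probe sets, 13513 had a single gene, 503 had more and 8794 were unlisted. Detection calls were not used, and precision is limited by the number of arrays.

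Tests used log2(intensity + 16). Probe sets at or above the 40th percentile of an array on 2 or more arrays were retained, controls excluded, leaving 15045. With limma 3.58.1 in R 4.3.3, lmFit and eBayes (intensity trend) were run on the 8 arrays together, and p-values were adjusted by Benjamini-Hochberg over the retained probe sets in each of 4 comparisons, at a threshold of 0.05. The fit was tested on simulated data. The text names the members, TCP15, the 3 most similar genes per member, every measured gene of the cell division lists and the measured genes of the marker lists except ANX1, which the filter removed. The members and lists were chosen with earlier results of these data known. Alternatives changed the pseudocount (1, 32), the filter, the scaling (quantile, median), a covariate (scanner background, GAPDH ratio), the groups fitted, or left out an array. Replicate numbers follow accession order and pair nothing. Plots were made with matplotlib 3.10.9.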

Additional observations from a re-analysis of the deposited data

Results flagged for a closer look

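A control measure outside the comparisons, the 5′ GAPDH signal over the 3′ one, was higher on HET replicate 1 (0.345) than on either control array (0.086 and 0.129). For actin the same ratio was 0.0732 on HET replicate 1, between those of the control arrays (0.0929 and 0.0720). Without HET replicate 1, HET minus CON was -0.57 for AUR1 and -0.26 for PRL. No array was tested as an outlier for the 3 genes.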

How the results depend on the processing

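No member passed the threshold in any comparison as designed or under any of the 16 alternatives (limma adjusted p from 0.658 upwards). An unadjusted p under 0.05 was reached by AUR1 in 1 alternative for T13 and in 3 for HET. AUR1 stayed negative against CON throughout. Its T13 minus T14 value turned to -0.0055 under quantile normalization, -0.0151 under median centring, -0.35 with scanner background and -0.0023 with the GAPDH ratio as a covariate. AUR2 turned in HET to 0.0233, 0.0189, 0.153 and 0.198 under the same 4 settings, and with scanner background to 0.0224 in T14 and -0.157 in T13 minus T14. PRL in T13 turned to 0.0026 (quantile) and 0.0145 (GAPDH ratio), and T13 minus T14 to -0.0093 (median centring). The cause was not tested.

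Leaving out each array in turn gave, for AUR1, -0.60 to -0.07 in T13, -0.48 to -0.20 in T14, -0.62 to -0.34 in HET and -0.26 to 0.28 for T13 minus T14. AUR2 ranged over -0.26 to 0.11, -0.37 to 0.0773, -0.20 to 0.17 and -0.16 to 0.29, and PRL over -0.15 to 0.0926, -0.15 to 0.0661, -0.26 to -0.12 and -0.11 to 0.14.

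Over all kept probe sets 89, 3, 161 and 75 passed in T13, T14 and HET against CON and T13 against T14, and leaving out arrays gave 16 to 109, 0 to 5, 85 to 184 and 8 to 74. Without the filter T13 had 46, T14 0 and T13 against T14 0. T14 had 0 with a pseudocount of 1 and with scanner background, 5 under quantile normalization and 10 when fitted alone. HET had 102 with scanner background and 52 with the GAPDH ratio, and T13 against T14 had 0 and 38, and 4 when fitted alone. The count of negative cell division genes in T13 was 11 (quantile) and 12 (median centring) against 7. In HET it was 10 under both scalings against 12. The alternatives for this count and for the F test were chosen after seeing the data. No paired analysis was possible because the labels give no replicate numbers shared between groups.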
